A study of Homo sapiens with 8 samples.

Results

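The NRF2 antioxidant genes were 9 genes of the 18377 that had a probe set of their own on the arrays: NFE2L2, which encodes NRF2, its repressor KEAP1, and 7 genes that NRF2 is known to control, HMOX1, NQO1, GCLC, GCLM, SRXN1, TXNRD1 and SLC7A11. The members were chosen by name with earlier results of these data known, so shares of the 9 beside those of all genes are descriptions only. Each member was read from the single probe set that carried its symbol alone. RNA came from A549 cells, an epithelial line derived from a human lung adenocarcinoma, held at an air-liquid interface on collagen-coated membranes. Cells received photochemically altered (PCA) pollutants in the evening, called an aged urban mix in the labels, primary pollutants in the morning, called a fresh urban mix, or incubator air as a control at each time of day, which the array labels describe as humidified air. Each exposure lasted 4 hr, and RNA was collected 9 hr later. There were 8 arrays, 2 for each of the 4 groups: PCA pollutants, evening control, primary pollutants and morning control. Each mixture was drawn from an outdoor irradiation chamber holding a hydrocarbon mixture and nitrogen oxides, with the PCA mixture taken after a day of reaction in sunlight and the primary mixture early in the day, when some reaction had already taken place. The study called the 2 arrays of a group biological duplicates, but both were exposed in the same session, so the p-values measure the spread within a session, and mixture, time of day and session cannot be told apart when the mixtures are set against each other. All results are from this 1 cell line.

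NRF2 is a transcription factor that binds antioxidant response elements together with a small MAF protein and switches on genes for glutathione, thioredoxin, NADPH, heme breakdown and detoxification. KEAP1 holds NRF2 in the cytoplasm and passes it to a ubiquitin ligase, and oxidants or electrophiles that modify KEAP1 cysteines let NRF2 escape breakdown and enter the nucleus. HMOX1 and NQO1 are common readouts of oxidant and ozone exposure in airway cells. A549 cells carry a KEAP1 mutation that weakens this repression, so NRF2 is known to be active in them without any exposure. The control levels are therefore given before the responses.

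The core letters of the antioxidant response element, TGACNNNGC on either strand, were searched in the 300 bases that run from 250 before to 50 after each annotated start (RefSeq, GRCh38.p14). Windows were at hand for 7 of the 9 genes and numbered 10, since some genes have several starts. The core was found in 4 windows of 3 genes, GCLM, KEAP1 and TXNRD1, and 13.3% of 35116 windows of all genes hold it. Stretches of 61 bases around 1 core of each gene are shown because they are the only member genes with the core in these windows. Capitals mark the 1 core chosen for each gene. In all 3 the chosen core lies on the strand opposite to the gene, where it reads TGACTAAGC in GCLM and KEAP1 and TGACAAAGC in TXNRD1. Since KEAP1 and TXNRD1 also hold cores on the strand of the gene, the shared strand and letters describe the cores chosen and not the genes. The chosen GCLM and KEAP1 cores share all 9 letters, and the KEAP1 and TXNRD1 stretches lie before the second of the 2 starts listed for each gene. Further cores were found in KEAP1 (1) and TXNRD1 (2). The further KEAP1 core, TGACACGGC, lies on the strand of the gene, within the stretch shown but in small letters. Of the further TXNRD1 cores 1, TGACTTCGC, also lies on the strand of the gene.
GCLM (chr1:93909430-93909490, minus strand, core 34 to 26 bases before the start): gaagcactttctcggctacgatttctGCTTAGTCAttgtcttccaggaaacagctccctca
KEAP1 (chr19:10502768-10502828, minus strand, core 31 to 23 bases before the start): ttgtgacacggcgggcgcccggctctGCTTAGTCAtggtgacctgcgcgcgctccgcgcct
TXNRD1 (chr12:104286904-104286964, plus strand, core 102 to 94 bases before the start): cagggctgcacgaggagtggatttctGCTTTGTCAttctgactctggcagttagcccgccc
The windows of NFE2L2, NQO1, GCLC and SRXN1 did not hold these letters, which says nothing of elements farther away. The AP-1 letters TGANTCA, which overlap some antioxidant response elements, were in none of the 10 windows and in 7.71% of all windows.

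In control cells, which received no pollutant, the 9 genes were all well above the signal limit of 30. Under this limit a probe set was treated as background. The control arrays join the evening and morning sessions, so the spreads given include any difference between these sessions. Signals are given on the log2 scale as deposited, and since probe sets bind with different strength, no gene's level is set against another's. Over the 4 control arrays NQO1 averaged 12.86 ± 0.04 (SD, n = 4 arrays), which is 248 times the limit on the linear scale, and TXNRD1 averaged 13.11 ± 0.04, or 295 times the limit. SLC7A11 averaged 12.32 ± 0.11 (170 times the limit) and GCLC 11.80 ± 0.06 (119 times). The other 5 genes were also far above the limit. NFE2L2 averaged 10.35 ± 0.04 (43.5 times), SRXN1 10.29 ± 0.04 (41.6 times), GCLM 9.82 ± 0.10 (30.1 times), KEAP1 9.22 ± 0.02 (19.9 times) and HMOX1 9.11 ± 0.15 (18.4 times).

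The arrays resembled each other, with a correlation between the arrays of a pair of 0.994 to 0.997 over all probe sets and medians of 6.93 to 7.03. The PCA arrays had a narrower spread of log2 signals (SD 1.98 and 1.99) than the evening control arrays (both 2.07), the primary arrays (2.04 and 2.06) and the morning control arrays (2.07 on each). By release of lactate dehydrogenase, the paper reported more cell death with PCA pollutants than with primary pollutants. The part of cell death in the results given here was not tested. The epithelial markers KRT8 and KRT18 were bright on all arrays, at 13.49 to 13.70 and 13.50 to 14.08, and the 5 alveolar type II markers with a probe set of their own were all above the limit, which is 4.91 on the log2 scale. SFTPC, SFTPB and LAMP3 were below the medians of the arrays, at 5.77 to 6.59 across the 3, and SFTPD (7.15 to 7.43) and ABCA3 (7.55 to 7.77) were above them. Of the 4 leukocyte markers PTPRC was under the limit on every array, at 4.08 to 4.51, while CD68 (9.47 to 9.85), CD14 (6.63 to 7.03) and CD3E (5.41 to 5.62) were above it. On each array 24358 to 24861 of the 28869 probe sets reached the limit, so a signal above it does not by itself show expression. No type II or leukocyte marker was called after the PCA pollutants. Of the 5 epithelial markers 1 was called, CDH1, the adhesion protein E-cadherin, which fell by 1.11 on the log2 scale after the PCA pollutants; the part of this change in the NRF2 results was not tested.

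None of the 9 genes was called after the PCA pollutants, where a call required an adjusted p under 0.05 (limma, Benjamini-Hochberg over all probe sets tested) and a change of at least 1.5-fold; of all 17470 genes tested, 3.53% were called, 0.876% higher and 2.66% lower. All 9 had a log2 fold change below 0, with a median of -0.23 against -0.0017 over all genes tested, of which 49.7% were above 0. In 8 of the 9 genes (88.9%) both PCA arrays were below both evening control arrays, against 36.6% of all genes. Without the fold limit, 4 of the 9 passed (NFE2L2, GCLC, NQO1 and SRXN1), all lower, against 19.7% of all genes in either direction. Leaving out 1 array lowered these 4 to 1 without PCA replicate 1, 2 without PCA replicate 2 and 0 without either evening control replicate. On the deposited values the highest upper end of a 95% confidence interval among the 9 was 1.10-fold, for HMOX1, and the lowest lower end was 0.673-fold, for NFE2L2.

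**Figure D1:**
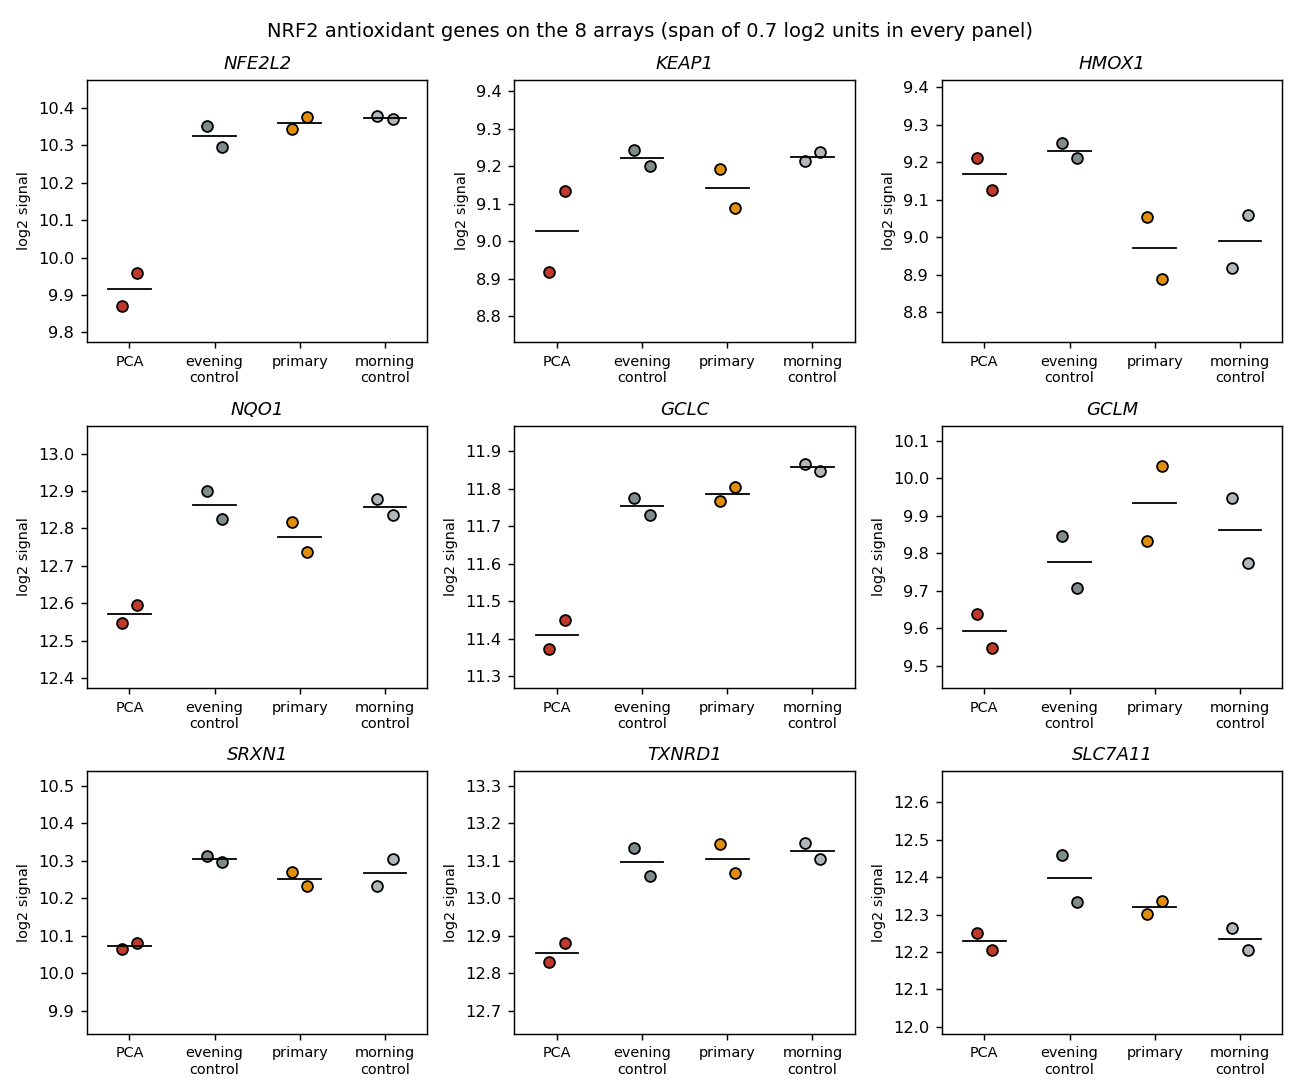
Log2 signal of each NRF2 antioxidant gene on each of the 8 arrays, 1 panel per gene with its own axis, with points for arrays and bars for group means. The PCA arrays lie below the evening control arrays in 8 genes and overlap them in HMOX1.

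NFE2L2 (chr2:177230303-177264727) encodes NRF2 itself and had the largest difference of the 9. It read 9.87 and 9.96 on the PCA arrays, against 10.35 and 10.30 on the evening control arrays. Both PCA values were the lowest of all 8 arrays, and the other 6 lay together between 10.30 and 10.38. The log2 fold change was -0.41 ± 0.07 (SE), or 1.33-fold lower, with an adjusted p of 0.0094 (limma). The order of its 4 group means was morning control, primary pollutants, evening control and PCA pollutants from high to low, and only PCA pollutants stood clear of its neighbour.

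KEAP1 (chr19:10486125-10503356), the repressor of NRF2, read 8.92 and 9.13 on the PCA arrays, against 9.24 and 9.20 on the evening control arrays. The PCA arrays differed from each other by more than the evening control arrays did, and the lower of them was the lowest of all 8. The log2 fold change of -0.20 ± 0.09 did not pass, with an adjusted p of 0.154 (limma). In the order of group means the primary arrays lay between the controls and PCA pollutants, without overlapping the evening control but overlapping PCA pollutants.

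Glutathione synthesis starts with glutamate-cysteine ligase, made of the catalytic subunit GCLC and the modifier subunit GCLM, and depends on cystine brought in by the exchanger SLC7A11. GCLC (chr6:53497341-53545101) read 11.37 and 11.45 on the PCA arrays, against 11.78 and 11.73 on the evening control arrays, the second largest difference of the 9. Its log2 fold change was -0.34 ± 0.07 (1.27-fold lower), with an adjusted p of 0.0161 (limma), short of the fold limit. Both PCA arrays were again the lowest of the 8.

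GCLM (chr1:93885199-93909430) was at 9.64 and 9.55 with PCA pollutants, against 9.85 and 9.71 with evening control air. The groups did not overlap, but by less than the spread within either pair, and the log2 fold change of -0.18 ± 0.10 had an adjusted p of 0.229 (limma). SLC7A11 (chr4:138164097-138242349) was at 12.25 and 12.21, against 12.46 and 12.33. Its difference of -0.17 ± 0.08 had an adjusted p of 0.146 (limma), and the PCA arrays lay within the range of the morning control arrays. Of these 3 genes GCLC alone passed without the fold limit, although no difference between the 3 genes was tested. With the morning control in place of the evening control, SLC7A11 was at -0.005 after PCA pollutants.

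SRXN1, sulfiredoxin, repairs overoxidised peroxiredoxins, and TXNRD1 is the cytosolic thioredoxin reductase. SRXN1 (chr20:646615-653200) read 10.06 and 10.08 on the PCA arrays, against 10.31 and 10.30 on the evening control arrays. The difference of -0.23 ± 0.07 sat at the threshold, with an adjusted p of 0.0498 (limma). TXNRD1 (chr12:104215779-104350307) read 12.83 and 12.88 on the PCA arrays, against 13.13 and 13.06 on the evening control arrays. Its difference was about as large, -0.24 ± 0.07, and its adjusted p was 0.0522 (limma), so these genes fell on either side of the threshold with nearly the same change.

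NQO1 (chr16:69709401-69726560), a quinone reductase that spares cells from redox cycling of quinones, read 12.55 and 12.60 on the PCA arrays, against 12.90 and 12.82 on the evening control arrays. The PCA arrays were the lowest of the 8 and stood clear of the primary arrays, the next group in order. The log2 fold change was -0.29 ± 0.07, or 1.22-fold lower, with an adjusted p of 0.0308 (limma).

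HMOX1 (chr22:35381096-35394207), heme oxygenase 1, which breaks heme down to biliverdin, iron and carbon monoxide, had the smallest difference after PCA pollutants. It read 9.21 and 9.13 on the PCA arrays, against 9.25 and 9.21 on the evening control arrays, and these ranges overlapped. The log2 fold change was -0.063 ± 0.089, with an adjusted p of 0.626 (limma) and a 95% confidence interval of -0.27 to 0.14. Its sign depended on the scaling of the arrays, being 0.041 after quantile normalization, 0.055 after cyclic loess normalization and 0.063 with ribosomal protein genes as the scale.

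**Figure D2:**
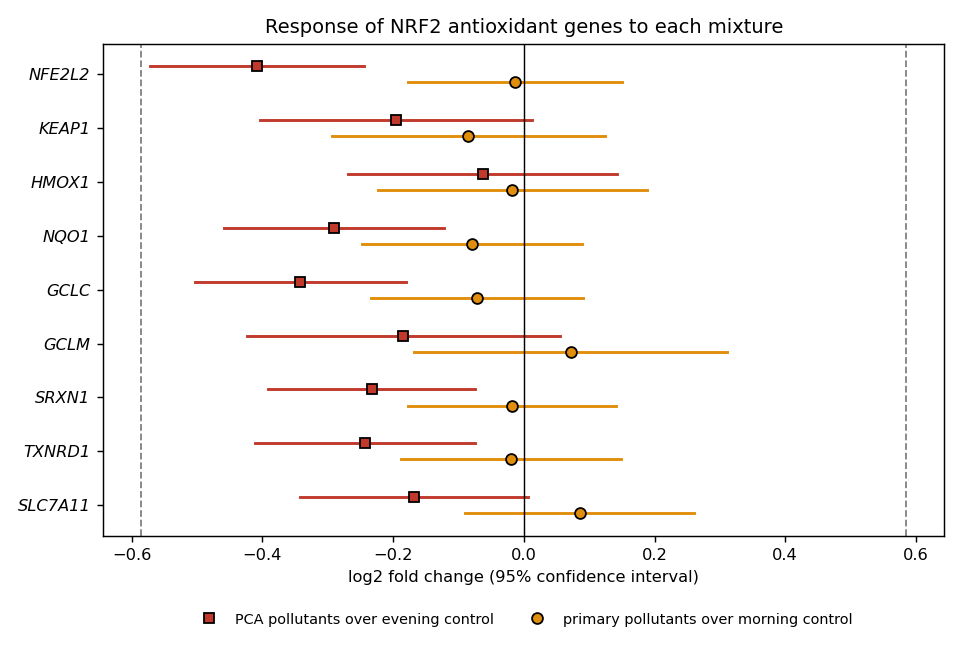
Log2 fold changes of the 9 genes, PCA pollutants over evening control and primary pollutants over morning control, with 95% confidence intervals from limma on 8 arrays and dashed lines at 1.5-fold. No interval reaches 1.5-fold, and the PCA values run from -0.41 for NFE2L2 to -0.063 for HMOX1.

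The primary pollutants gave smaller values. None of the 9 genes was called or had an unadjusted p under 0.05 (limma), and 0% of 17381 genes tested were called. At an unadjusted p under 0.05 there were 7.9% of all genes, 568 higher and 805 lower. The median of the 9 was -0.018 against -0.0072 over all genes, with 7 genes below 0 and 2 above, while 47.4% of all genes were above 0. In 4 genes the primary and morning control arrays did not overlap, 3 of them lower (KEAP1, NQO1 and GCLC) and 1 higher (SLC7A11). Of all genes 38.7% did not overlap, 21.7% lower and 17% higher. The confidence intervals of all 9 lay between 0.816-fold, the lower end for KEAP1, and 1.24-fold, the upper end for GCLM.

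NFE2L2 read 10.34 and 10.38 on the primary arrays, against 10.38 and 10.37 on the morning control arrays, a difference of -0.014 ± 0.070. HMOX1 read 9.05 and 8.89, against 8.92 and 9.06, so the arrays of both groups spanned nearly the same range. NQO1 read 12.82 and 12.74 on the primary arrays, against 12.88 and 12.84 on the morning control arrays, a difference of -0.080 ± 0.072. For these 3 genes the difference was thus no more than about its standard error.

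GCLC was at 11.77 and 11.80 after primary pollutants, against 11.87 and 11.85 in the morning control. KEAP1 was at 9.19 and 9.09, against 9.21 and 9.24. SLC7A11 was at 12.30 and 12.34, against 12.26 and 12.20, the largest value of the 9 at 0.085 ± 0.075, with an adjusted p of 0.808 (limma). None of these differences passed the test, although the arrays of the groups did not overlap.

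GCLM was at 9.83 and 10.03 on the primary arrays, against 9.95 and 9.78 on the morning control arrays. SRXN1 was at 10.27 and 10.23, against 10.23 and 10.30, and TXNRD1 at 13.14 and 13.07, against 13.15 and 13.10. All 3 overlapped their control, and of the 3 GCLM had the widest spread within a pair.

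Whether the PCA response differed from the primary response was tested directly. The PCA response less the primary response was below 0 in all 9 genes, with a median of -0.22 against -0.013 over all genes, of which 47.3% were above 0, but none of the 9 was called, against 0.439% of 17540 genes. NFE2L2 had the largest difference, -0.39 ± 0.10, with an unadjusted p of 0.00452 and an adjusted p of 0.117 (limma). GCLC (-0.27, unadjusted p = 0.0263, adjusted p = 0.216) and SLC7A11 (-0.25, unadjusted p = 0.0455, adjusted p = 0.27) also had unadjusted p-values under 0.05 in limma, as did 17.6% of all genes. HMOX1 had the smallest difference, -0.045, with an adjusted p of 0.89. With a trended and robust prior for the spread, NFE2L2 (adjusted p = 0.0123) and GCLC (adjusted p = 0.0441) passed without the fold limit in limma, as did 5.6% of all genes, and the other 7 did not.

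Evening and morning controls differ in time of day and session and carry no pollutant, and each is the control of the mixture given at its time of day. None of the 9 genes was called between them, and 0% of 17310 genes tested were; 860 genes (4.97%) had an unadjusted p under 0.05. HMOX1 had the largest difference among the 9, higher in the evening control by 0.24 ± 0.09, with an unadjusted p of 0.0269 and an adjusted p of 1.00 (limma). This exceeded the HMOX1 difference of either mixture from its own control. Both evening arrays (9.25 and 9.21) were above both morning arrays (8.92 and 9.06), as for SLC7A11, while GCLC and NFE2L2 were lower in the evening control without overlap; 41.7% of all genes did not overlap between the controls. HMOX1 was the only one of the 9 for which PCA pollutants set against the morning control instead gave a higher value, at 0.18.

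The 8 other genes had their lowest group mean with PCA pollutants. Across the 8 arrays NFE2L2 ran with GCLC (Pearson's r = 0.990), TXNRD1 (0.968) and NQO1 (0.921), and both PCA arrays were low in each of them. HMOX1 ran against GCLM (-0.693) and against NFE2L2 (-0.453). Among 17310 genes, the profiles most like NFE2L2 were those of HS2ST1 (0.996), PJA2 (0.995) and ADAM17 (0.994), and those most like HMOX1 were AGT (0.962), ILK (0.951) and THSD4 (0.950). These correlations are descriptions over 8 arrays that share groups and sessions.

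How far the low PCA values belonged to the NRF2 genes was read against genes of like brightness, a comparison chosen after the values had been seen. Log2 fold changes after PCA pollutants went down as mean signal went up over all genes, with medians of 0.14, 0.072, -0.093 and -0.13 in 4 equal groups of genes by mean signal, from dim to bright. All 9 genes lay in the brightest group, a group of 4368. Of the 9, 100% were below 0, against 74.7% of that group. Of the 9, 88.9% were lower without overlap, against 63.2%, and 44.4% were lower with an adjusted p under 0.05, against 26.2%. In that group 31.7% of genes were at or below the median of the 9. After cyclic loess normalization, which removes such a slope, the 9 genes had a median of -0.096 and the brightest group a median of -0.0092, with 8 of the 9 below 0. Only 1 of the 9 was then lower with an adjusted p under 0.05 without the fold limit, against 12.6% of the brightest group. Quantile normalization, which also flattens the slope, left 4 of the 9 lower at that threshold, against 14.5% of the brightest group, with medians of -0.13 for the 9 and -0.036 for the group.

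**Figure D3:**
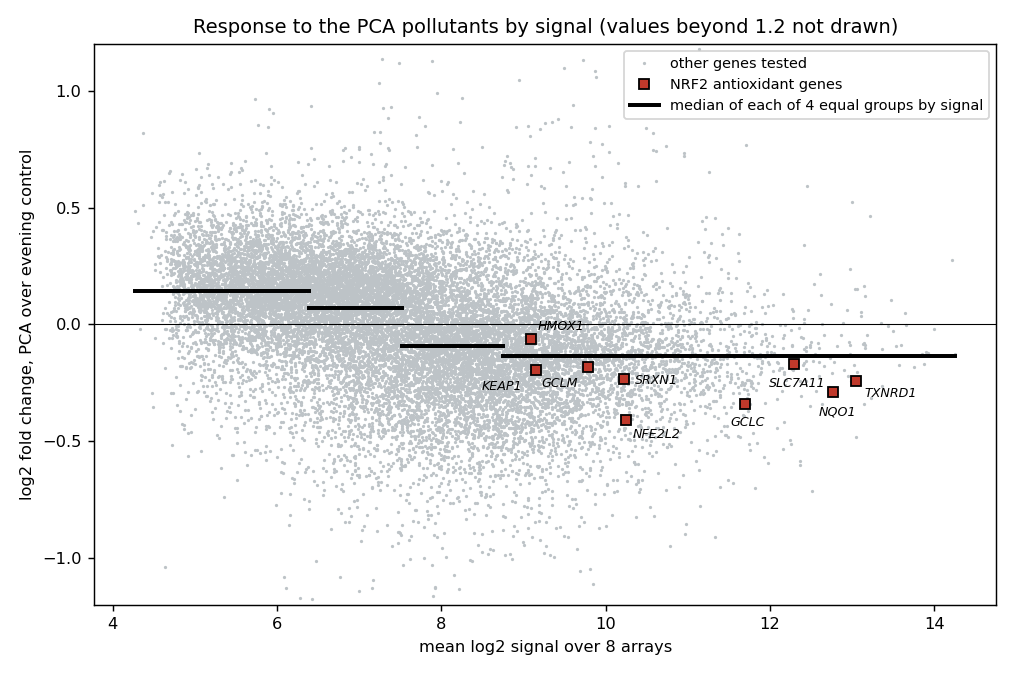
Log2 fold change, PCA pollutants over evening control, against mean log2 signal over the 8 arrays for all genes tested, with the 9 NRF2 antioxidant genes as squares and the median of each of 4 equal groups of genes by signal as a line. The medians go down to -0.13 in the brightest group, where all 9 squares lie and 8 of them are under the line.

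The size of the changes also followed the scaling, which assumes that some set of genes is unchanged. The median of the 9 after PCA pollutants was -0.29 with each array centred on its median, -0.13 after quantile normalization, -0.096 after cyclic loess normalization and -0.11 with 63 ribosomal protein genes as the scale. The last of these moved the median of all genes to 0.13 after PCA pollutants and 0.092 after primary pollutants. NFE2L2 remained the lowest of the 9 under each scaling, between -0.47 and -0.27. After primary pollutants the ribosomal scale put all 9 genes above 0, between 0.014 and 0.18, so no direction is given for them.

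**Figure D4:**
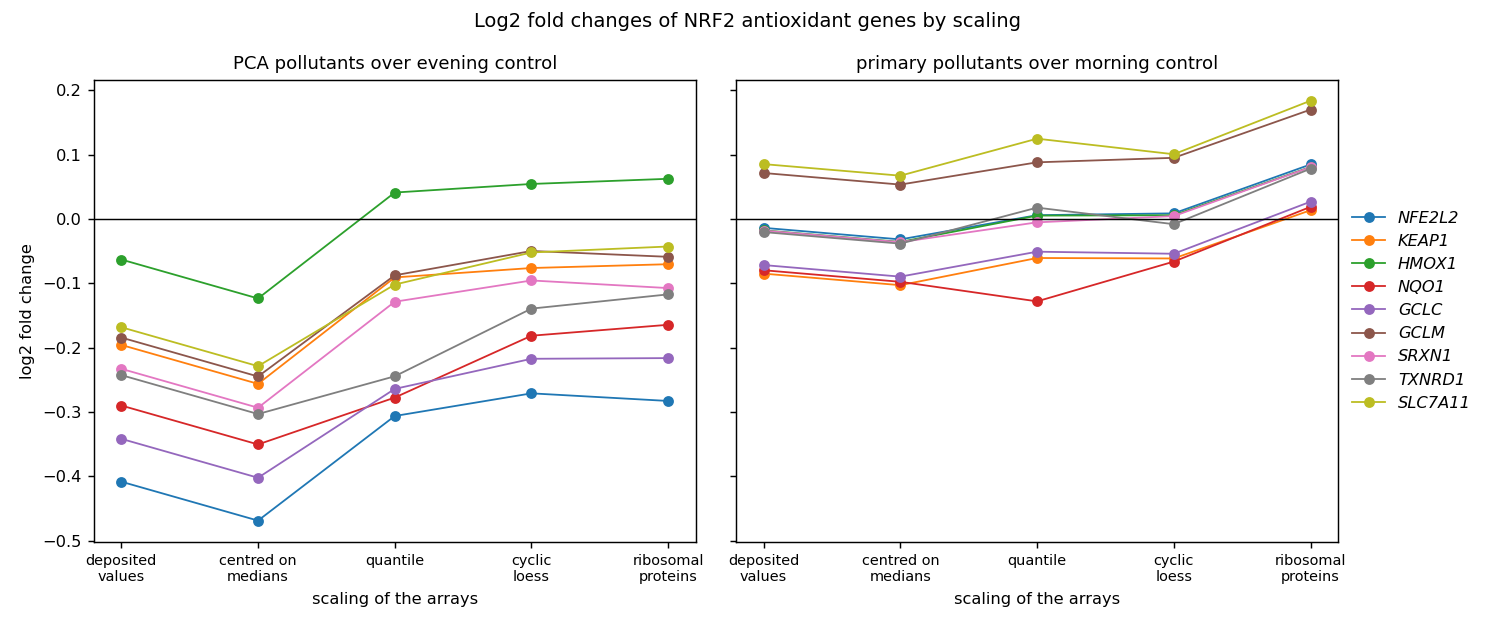
Log2 fold changes of the 9 genes under 5 scalings of the arrays, PCA pollutants over evening control on the left and primary pollutants over morning control on the right. HMOX1 changes sign on the left, and on the right all 9 genes are above 0 with ribosomal protein genes as the scale.

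Lists of other genes around NRF2 were read from the same fit. The 7 lists held 82 genes, and 75 had a probe set of their own that was tested. After PCA pollutants 5 of the 75 fell (MAFG, SLC40A1, ABCB6, CYP4F11 and ABCG2) and none rose. Of all genes 2.66% were called lower and 0.876% higher, and of the brightest group 3.96% were called lower. The median of the 75 was -0.20. Of the 75, 61 (81.3%) were below 0, against 50.3% of all genes and 74.7% of the brightest group, and 54 (72%) were lower without overlap, against 36.6% and 63.2%. Without the fold limit, 22 (29.3%) were lower with an adjusted p under 0.05, close to the 26.2% of the brightest group, which held 50 of the 75. After primary pollutants none of the 75 was called, with a median of -0.016.

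**Figure D5:**
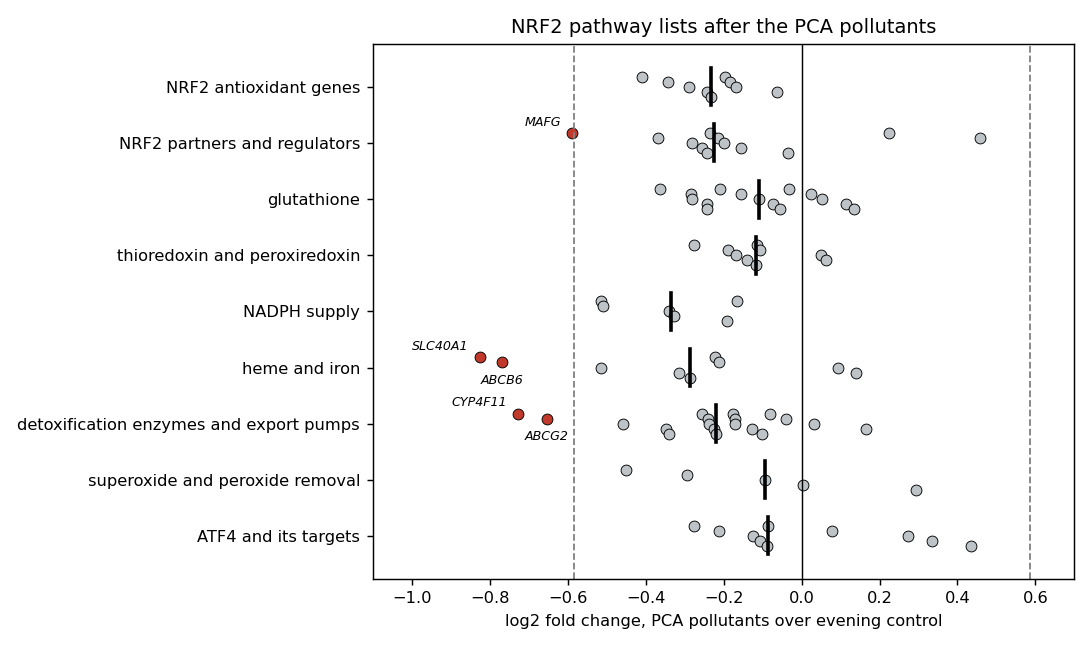
Log2 fold changes, PCA pollutants over evening control, of the 9 NRF2 antioxidant genes and of 8 gene lists, with a point for each gene, a bar at the median of each list and dashed lines at 1.5-fold. Red points mark the 5 called genes, all lower, and the list medians run from -0.33 for NADPH supply to -0.087 for ATF4 and its targets.

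Of the 12 partners and regulators of NRF2 tested, 1 was called after PCA pollutants. MAFG, a small MAF protein with which NRF2 binds DNA, read 9.97 and 9.85 on the PCA arrays, against 10.50 on each evening control array. It fell by 0.59 ± 0.07, just past the limit at 1.503-fold, with an adjusted p of 0.0034 (limma). The call was lost, at -0.35, when all its probe sets were averaged, and at -0.49, -0.45 and -0.46 under quantile, cyclic loess and ribosomal scaling. It was also lost without PCA replicate 2 (-0.53) or without evening control replicate 2 (-0.58).

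MAFF, another small MAF, had a value above 0, at 6.95 and 6.98 with PCA pollutants, against 6.403 and 6.61 in the evening control (0.46 ± 0.13, adjusted p = 0.0452 in limma, under the fold limit). Against the morning control it was at 0.18, with an adjusted p of 0.343. BACH1, the repressor that competes with NRF2 at these elements, was at 7.93 and 8.03, against 8.23 and 8.28 (-0.28, adjusted p = 0.0325). RBX1, a subunit of the ubiquitin ligase that KEAP1 serves, was at -0.37 with an adjusted p of 0.0278, and against the morning control at -0.64 with an adjusted p of 0.0061, past the fold limit. SQSTM1, the autophagy receptor p62 that draws KEAP1 away, was at -0.21 with an adjusted p of 0.0649 (limma for all). After primary pollutants RBX1 had the smallest p of this list, at -0.20 with an adjusted p of 0.607.

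The heme and iron list held the largest change of the 7 lists. SLC40A1, ferroportin, the iron exporter, read 9.21 and 9.31 on the PCA arrays, against 10.10 and 10.07 on the evening control arrays. It fell by 0.83 ± 0.07 (1.77-fold), with an adjusted p of 0.00113 (limma). ABCB6, a transporter of porphyrins, read 8.30 and 8.26, against 9.04 and 9.05, and fell by 0.77 ± 0.07 (1.70-fold, adjusted p = 0.00123 in limma). Against the morning control arrays instead, ABCB6 was lower by 0.57 on the log2 scale, under the fold limit. The list had a median of -0.29 over 9 genes tested, of which 2 were above 0.

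After primary pollutants SLC40A1 read 9.60 on each array, against 9.87 and 9.82 in the morning control. This was the smallest p of its list, at -0.24 with an adjusted p of 0.47 (limma). Its PCA response less its primary response was -0.58, with an adjusted p of 0.0622. The 4 groups of arrays did not overlap for SLC40A1, with the evening control above the morning control by 0.24 (adjusted p = 1.00).

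Of 19 detoxification enzymes and export pumps tested, 2 fell after PCA pollutants. CYP4F11, a fatty acid and vitamin K hydroxylase, read 8.09 and 8.15, against 8.88 and 8.82 in the evening control, and fell by 0.73 ± 0.08 (1.66-fold, adjusted p = 0.0025 in limma). ABCG2, an export pump for drugs and porphyrins, read 8.79 and 8.72, against 9.45 and 9.37, and fell by 0.65 ± 0.09 (1.57-fold, adjusted p = 0.00416). The ABCG2 call was lost under quantile (-0.55), cyclic loess (-0.53) and ribosomal (-0.53) scaling. After primary pollutants ABCC3, another export pump, had the smallest p, at -0.16 with an adjusted p of 0.584 (limma).

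The enzymes that supply NADPH had the lowest median of any list, -0.33, with all 6 tested genes below 0 and none called. TKT, transketolase of the pentose phosphate pathway, read 11.91 and 11.95 with PCA pollutants, against 12.46 and 12.43 in the evening control (-0.51, adjusted p = 0.00407 in limma). IDH1, the cytosolic NADP-dependent isocitrate dehydrogenase, read 11.40 and 11.58, against 11.98 and 12.02 (-0.51, adjusted p = 0.00738). Both were within 1.5-fold. After primary pollutants ME1, malic enzyme 1, had the smallest p, at 0.12 with an adjusted p of 0.694 (limma).

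No gene was called among 15 glutathione genes tested, whose median was -0.11. GSS, glutathione synthetase, which completes the tripeptide, was at 9.29 and 9.30 with PCA pollutants, against 9.67 and 9.64 in the evening control (-0.36, adjusted p = 0.0108 in limma), and GSTP1, a glutathione transferase, was at -0.28 (adjusted p = 0.0363). No gene was called among 9 thioredoxin and peroxiredoxin genes, whose median was -0.12. The smallest p-values there were those of the mitochondrial TXN2 (-0.28, adjusted p = 0.0512) and PRDX3 (-0.19, adjusted p = 0.0861). After primary pollutants the genes of smallest p were GGCT, which breaks down gamma-glutamyl peptides (-0.16, adjusted p = 0.676 in limma), and TXN2 (-0.19, adjusted p = 0.585).

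None of 5 genes for superoxide and peroxide removal was called. Catalase, CAT, was at 9.25 and 9.37 with PCA pollutants, against 9.78 and 9.74 in the evening control (-0.45, adjusted p = 0.0105 in limma), and SOD1, the copper-zinc superoxide dismutase, was at -0.30 (adjusted p = 0.0306). After primary pollutants SOD1 was at -0.13 with an adjusted p of 0.662.

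SLC7A11 is also a target of ATF4, the factor of the amino acid and endoplasmic reticulum stress response, so ATF4 and 9 other genes of that response were read beside it. None of the 10 was called after PCA pollutants, with 4 above 0, 6 below 0 and a median of -0.087. ATF4 itself was at -0.28. ATF3, a stress-induced factor, was at 6.86 and 6.92 with PCA pollutants, against 6.37 and 6.55 in the evening control (0.43, adjusted p = 0.0204 in limma). PSAT1, an enzyme of serine synthesis, was at 0.33 (adjusted p = 0.0217 in limma). Against the morning control instead, PSAT1 was at 0.027 and ATF3 at 0.41. SLC7A11 was at -0.17 in the same arrays. After primary pollutants DDIT4, a stress-induced inhibitor of mTORC1, had the smallest p, at 9.99 and 9.98 against 9.69 and 9.65 in the morning control (0.32, adjusted p = 0.408).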

How the data were processed

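The authors extracted total RNA, hybridized it to Human Gene 1.0 ST arrays and normalized the 8 arrays by robust multichip average; the deposited values are log2 signals, and per the labels Partek 6.4 was used. Of 28869 probe sets, 19310 carried 1 gene symbol, 1752 several and 7807 none. Where several probe sets carried a gene's symbol, the one with the highest mean signal stood for it. Probe sets reaching a signal of 30 on at least 1 array of a comparison were fitted with group means over all 8 arrays in limma 3.58.1 (R 4.3.3; 4 residual degrees of freedom), and p-values were adjusted by the Benjamini-Hochberg method over all probe sets tested. A gene was called at an adjusted p under 0.05 where it also differed 1.5-fold or more. The authors set the same fold limit but required a p under 0.05 by analysis of variance and a q-value under 0.05. By those limits the paper reported genes that changed after primary pollutants, where limma called none. With 2 arrays a group, log2 fold changes had a median standard error of 0.091. The fit was tested on simulated data. Confidence intervals are 95% and not adjusted for the number of genes.

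The members and lists were chosen with earlier results of these data known. Named were the 9 members; of each list after PCA pollutants the called genes (at most 4) or, with none, the 2 of smallest p; after primary pollutants the 1 of smallest p; MAFF, MAFG, MAFK, BACH1 and SQSTM1; and the 3 genes most like NFE2L2 and HMOX1. List genes not analysed here, having no probe set of their own in the table used, included MAFK, GGT1, TXNRD3, PRDX5, FTH1 and PIR. Promoter windows came from RefSeq tables of GRCh38.p14. Alternatives in scaling, filter, prior, test, probe sets, controls and left-out arrays were run.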

Additional observations from a re-analysis of the deposited data

Results flagged for a closer look

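ABCB6, the porphyrin transporter, was the 1 gene of the 7 NRF2-related lists whose PCA response and primary response differed by the direct test. The PCA response less the primary response was -0.74 ± 0.10 (SE) on the log2 scale, with an adjusted p of 0.0359 (limma), from -0.77 after PCA pollutants and -0.025 after primary pollutants. The evening control was above the morning control by 0.20 (adjusted p = 1.00), and no gene of these lists differed by the direct test without a filter on low signal, with exchanged controls, or without any 1 of the 8 arrays. The same held with the replicate number as a block and when testing against the fold limit itself. On the deposited values ABCB6 was the 1 gene called of the 75, against 0.439% of 17540 genes. The part of the controls in the ABCB6 difference was not tested.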

How the results depend on the processing

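With 2 arrays a group, no member was called in any comparison under any setting with the fold limit. Medians of the 9 members after PCA pollutants were -0.29 with arrays centred on their medians, -0.13 after quantile normalization, -0.096 after cyclic loess normalization and -0.11 with ribosomal scaling. Their medians for the PCA response less the primary response were -0.18 (quantile) and -0.13 (cyclic loess), and ribosomal scaling gave 0.081 for primary pollutants and 0.093 for evening control against morning control. Without the fold limit, 4 members passed after PCA pollutants. In the lists 4 of 12 partners, 3 of 15 glutathione and 4 of 6 NADPH genes passed. So did 5 of 9 heme and iron, 5 of 19 detoxification and 2 of 5 superoxide genes. No thioredoxin gene passed, and 3 of 10 ATF4 genes did. Of the 75 genes together 23 passed, against 19.7% of all genes in either direction. In the brightest group by signal 26.2% of genes passed as lower. With the fold limit, 1 partner, 2 detoxification genes and 5 of the 75 were called on the deposited values, and quantile, cyclic loess and ribosomal scaling each left 0 partners, 1 detoxification gene and 3 of the 75. Testing against the fold limit itself (treat) left 0 partners, 0 heme and iron, 0 detoxification and 0 of the 75. Averaging probe sets left 0 partners, and exchanged controls gave 2. Leaving out 1 array gave 0 to 1 partners and 0 to 1 NADPH genes. It left 0 members (without either evening control replicate) to 2 (without PCA replicate 2) with an adjusted p under 0.05, and 1 without PCA replicate 1. Over all genes, calls after PCA pollutants were 153 higher and 464 lower, and 378 higher and 216 lower with ribosomal scaling. Calls in the PCA response less the primary response numbered 16 higher and 61 lower, against 8 and 8 without the signal filter, 67 and 180 at a minimum signal of 100, and 80 and 198 with a trended and robust prior, under which 2 members had an adjusted p under 0.05. After primary pollutants the methods' analysis of variance at an unadjusted p gave 8 higher and 2 lower.

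Same-numbered arrays did not deviate together (correlations of -0.10 to 0.04). The labels do not say whether the numbers pair the arrays, and with 2 arrays a group these correlations cannot settle it. With the replicate block, 0 members were called in each comparison, the members' median after PCA pollutants was -0.23, calls over all genes were 151 higher and 460 lower, and calls in the PCA response less the primary response were 2 and 0.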
